A study of Mus musculus with 12 samples.

Results

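The vacuolar H+-ATPase (V-ATPase) subunits described here are 10 of the 17007 genes with deposited expression values, and they were chosen by symbol from a list that sets *Atp6v0e2*, picked because its level differed between the 2 drugs of the study, beside its paralog *Atp6v0e* and 8 further subunits. That difference was the reason for the choice, so the levels of *Atp6v0e2* in drug-treated tumors and every MLN0128 to everolimus difference are given as descriptions with no test. All 10 genes passed the filter on low values, which kept the 14397 genes that reached 0.5 FPKM in 3 or more of the 12 libraries. FPKM is fragments per kilobase of transcript, scaled to library size.

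Bulk RNA was sequenced from 4 groups of 3 mice. Normal livers (NL) came from wild-type C57BL/6 mice with no treatment listed. The other groups were c-MYC/MCL1/RictorKO Tsc2KO liver tumors, grown in mice homozygous for floxed Rictor and Tsc2 (Rictor fl/fl, Tsc2 fl/fl) after hydrodynamic tail vein injection of plasmids for c-MYC, MCL1 and Cre, a method that reaches mainly hepatocytes, so that other cells of the tumor may keep both floxed genes. The oncogenes were driven by an EF1α promoter and Cre by a CMV promoter. By design all tumor groups share both oncogenes and both deletions, and no group held the drugs without the tumor. Treatment was vehicle, MLN0128 (an inhibitor of the mTOR kinase itself) or everolimus (a rapamycin analog acting on mTORC1), with either drug at 1 mg/kg daily. The labels and methods give gavage on 6 days of each week for 3 weeks from day 6 after injection. The same sources give killing at 3.7 weeks. The study's results text instead gives 3 days of either drug for the RNA-Seq tumors, so the length of treatment is uncertain. The floxed mice were on a C57BL/6J background, animals of either sex were used in the study, and the mice's ages are not given in the sources used here.

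The V-ATPase pumps protons into lysosomes, endosomes and secretory vesicles at the cost of ATP. Its cytosolic V1 part, built of subunits A to H, splits ATP and turns a rotor, and its membrane V0 part, built of subunits a, c, c″, d and e with the accessory protein Ac45, carries the protons. Several subunits exist as isoforms encoded by separate genes, and some isoforms are known from specialized cells: a4 and B1 from acid-secreting kidney cells, and d2 and a3 from osteoclasts and macrophages. At the lysosome the pump also works with the Ragulator complex and the Rag GTPases, through which amino acids activate mTORC1.

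Recovered reads numbered 17134095 to 25161014 per library. The authors' scaling between libraries departed from plain read totals, with factors (effective library size over recovered reads) of 0.585 to 0.595 in NL and 1.10 to 1.37 in tumors. Without it, the median difference of all tested genes between vehicle-treated tumors and NL moved by 0.56 on the log2(FPKM + 1) scale, so tumor to NL differences below are relative to the authors' scaling. *Tsc2* lay at 4.50 to 5.32 FPKM in NL, 2.01 to 2.31 FPKM in vehicle tumors, 2.81 to 3.96 FPKM under MLN0128 and 2.78 to 2.87 FPKM under everolimus, and *Rictor* at 1.65 to 2.57, 1.05 to 1.5, 1.65 to 2.21 and 1.58 to 1.93 FPKM in the same order. The *Rictor* values of both drug groups overlapped those of NL, so these levels do not check the deletion there. MLN0128 replicates 1 and 2 held *Xist* RNA (191 and 155 FPKM) and no Y-linked RNA, unlike the other 10 libraries. For the chosen subunits, results with MLN0128 are therefore also given for replicate 3 alone where the call changes. For the other subunits such changes are not listed. All 7 hepatocyte markers fell in vehicle-treated tumors, from a summed 79344 to 98877 FPKM in NL to 3836 to 5913 FPKM. In bulk tissue, fewer cells of a type and less RNA per cell cannot be told apart.

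RefSeq promoter windows on GRCm38.p6, from 250 bases before to 50 bases after a start site, matched 7 of the 10 genes. They were searched for CACGTG, an E-box that reads the same on both strands and is the core bound by MYC with MAX and by the MiT/TFE factors of lysosomal genes, and for the longer palindrome TCACGTGA, which contains it. *Atp6v0e*, *Atp6v0d1* and *Atp6v1a* held both, at bases 3, -3 and -131 for the first C of CACGTG, counted from 0 at the start site, and *Atp6v0e2*, *Atp6v0a1*, *Atp6v0c* and *Atp6ap1* held neither. CACGTG occurred in 7.15% of all 32851 windows and in 11.8% of the 10217 tested genes with a window, and TCACGTGA in 0.974% and 2.19%. The *Atp6v0e*, *Atp6v1a* and *Atp6v0a1* windows lie wholly inside the annotated genes. So do the *Atp6v0c* windows at chr17:24169401-24169700 and chr17:24168760-24169059, while its window at chr17:24169629-24169928 reaches past the gene. Of 12 other V-ATPase subunits with a window, *Atp6v0b* held CACGTG and none held TCACGTGA. These counts are descriptions, and the motifs were chosen with the expression values known. The paralog pair of e subunits is shown because it differs in these letters, and the other 2 sequences show the same letters at subunits of V0 and V1. A link between these letters and the levels was not tested. TCACGTGA is in capitals, and the *Atp6v0e2* stretch holds none. The stretches are *Atp6v0e*, chr17:26676348-26676425 (+ strand), *Atp6v0d1*, chr8:105566035-105566118 (- strand), *Atp6v1a*, chr16:44139334-44139441 (- strand), and *Atp6v0e2*, chr6:48537319-48537598 (+ strand).
Atp6v0e: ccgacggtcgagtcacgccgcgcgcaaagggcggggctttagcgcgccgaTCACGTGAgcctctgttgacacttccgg
Atp6v0d1: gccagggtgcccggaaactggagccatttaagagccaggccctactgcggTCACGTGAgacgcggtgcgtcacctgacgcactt
Atp6v1a: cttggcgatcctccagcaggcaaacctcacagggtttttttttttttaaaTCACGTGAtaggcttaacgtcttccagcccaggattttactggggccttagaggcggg
Atp6v0e2: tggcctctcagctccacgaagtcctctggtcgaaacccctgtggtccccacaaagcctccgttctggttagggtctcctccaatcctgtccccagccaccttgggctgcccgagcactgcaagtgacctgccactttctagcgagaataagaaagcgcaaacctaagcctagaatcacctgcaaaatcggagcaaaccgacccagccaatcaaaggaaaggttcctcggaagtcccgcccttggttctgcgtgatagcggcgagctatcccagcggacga

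The small e subunit of V0 was measured as 2 transcripts. *Atp6v0e2* (ENSMUSG00000039347, chr6:48537615-48541801, + strand) was a low transcript in NL, at 0.623, 0.381 and 0.362 FPKM in replicates 1 to 3. It stood at 4.29, 4.30 and 4.15 FPKM with vehicle, so that the groups were far apart. MLN0128-treated tumors held 5.97, 3.78 and 4.14 FPKM, on both sides of the vehicle values. Everolimus-treated tumors held 0.845, 0.971 and 0.657 FPKM, below every vehicle and MLN0128 library and just above every NL library. *Atp6v0e2* rose 9.33-fold in mean FPKM between NL (0.455 ± 0.146, SD, n = 3) and vehicle (4.25 ± 0.0839, n = 3), a difference of 1.85 ± 0.144 (SE) on the log2(FPKM + 1) scale, which understates changes of low genes (limma adjusted p = 5.82e-07). The MLN0128 mean (4.63 ± 1.17) was 109% of the vehicle mean and the everolimus mean (0.824 ± 0.158) was 19.4% of it. The means of the drugs differed 5.62-fold, by 1.61 on the log2(FPKM + 1) scale, and by 2.34 with a pseudocount of 0.1. These values rest on 9 to 16 reads per NL library, 38 to 70 with everolimus and 192 to 403 in the other tumors.

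**Figure D1:**
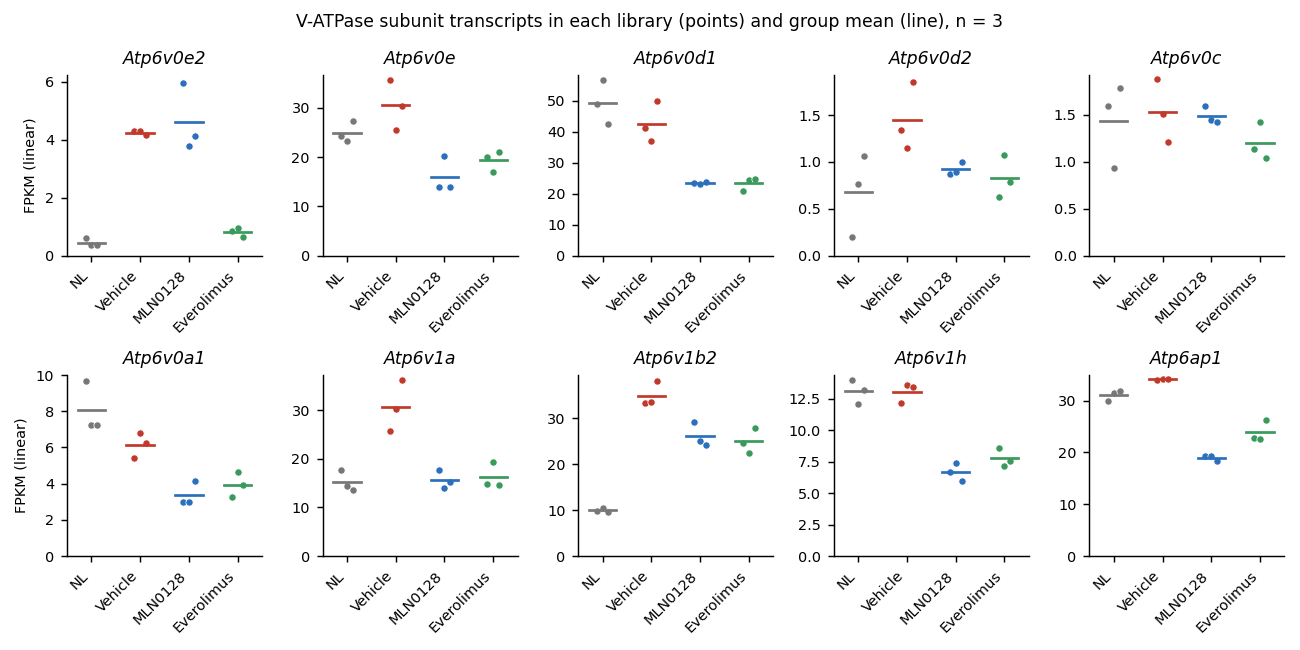
FPKM on linear axes from 0 (a separate scale for each gene) in the 12 libraries, with 3 points per group in replicate order and a line at the group mean. In the *Atp6v0e2* panel the MLN0128 points lie on both sides of the vehicle points, while the everolimus points (0.657 to 0.971 FPKM) lie near NL.

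*Atp6v0e* (ENSMUSG00000015575, chr17:26663231-26699647, + strand) encodes the widely expressed e1 protein and was the more abundant paralog in all 12 libraries. It lay at 24.4, 23.2 and 27.3 FPKM in NL and at 35.7, 25.6 and 30.3 FPKM with vehicle, which overlap (difference 0.27 ± 0.163, limma adjusted p = 0.158). It read 13.9, 20.2 and 14.0 FPKM with MLN0128 and 20, 17.1 and 21 FPKM with everolimus, all below every vehicle and NL library. *Atp6v0e* fell by 0.90 ± 0.163 on the log2(FPKM + 1) scale with MLN0128 (limma adjusted p = 0.00207) and by 0.62 ± 0.163 with everolimus (limma adjusted p = 0.0350). The everolimus call was lost when any of NL replicate 1, vehicle replicates 1 and 3 or the 3 everolimus replicates was left out, with limma adjusted p of 0.0531, 0.127, 0.108, 0.0948, 0.0773 and 0.0600, and with only the groups compared in the model (limma adjusted p = 0.0526).

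Of the summed FPKM of the pair, *Atp6v0e2* made up 1.31% to 2.49% in NL and 10.7% to 14.4% with vehicle. Its share was 15.8% to 30.05% with MLN0128 and 3.03% to 5.37% with everolimus, and no 2 of the 4 groups overlapped. The sum itself was 18.1 to 24.0 FPKM with MLN0128 and 18.1 to 21.7 FPKM with everolimus, against 29.9 to 40.0 FPKM with vehicle and 23.6 to 27.7 FPKM in NL. The pair gave similar sums under either drug. The unlike shares under the drugs follow from the choice of *Atp6v0e2* by its drug difference, and are given as a description.

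**Figure D2:**
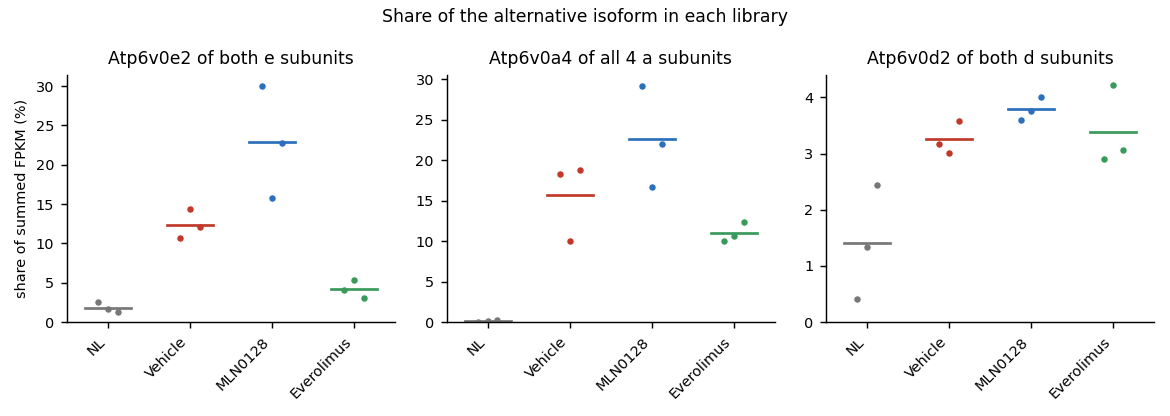
Share of an isoform in the summed FPKM of its subunit family, in percent on axes from 0, for the 3 libraries of each group (points) with the group mean (line). The *Atp6v0e2* share separates all 4 groups, that gene having been chosen for its difference between the drugs. The *Atp6v0a4* share leaves the NL libraries, at 0.0617% to 0.209%, below every tumor library.

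The d subunit joins the rotor of V0 to V1. *Atp6v0d1* (ENSMUSG00000013160, chr8:105524465-105566047, - strand), its general form, was one of the more abundant of the 10 transcripts, at 49.0, 56.6 and 42.3 FPKM in NL and 41.0, 37.0 and 49.7 FPKM with vehicle. It lay in a narrow band of 23.3, 23.0 and 23.9 FPKM with MLN0128 and at 20.9, 24.3 and 24.8 FPKM with everolimus. NL and vehicle overlapped (difference -0.21 ± 0.137, limma adjusted p = 0.195), and each drug group lay below both. *Atp6v0d1* fell by 0.83 ± 0.137 with MLN0128 (limma adjusted p = 0.00128) and by 0.83 ± 0.137 with everolimus (limma adjusted p = 0.00426), to 55.0% and 54.8% of the vehicle mean.

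*Atp6v0d2* (ENSMUSG00000028238, chr4:19876841-19922605, - strand), the isoform known from osteoclasts and macrophages, was a low transcript, at 0.205 to 1.85 FPKM, on 6 to 117 reads. It read 0.205, 0.768 and 1.06 FPKM in NL, 1.34, 1.15 and 1.85 FPKM with vehicle, 0.869, 0.898 and 1.00 FPKM with MLN0128 and 0.624, 1.07 and 0.783 FPKM with everolimus. Vehicle was the highest group and overlapped no other, and the remaining 3 groups overlapped in order. *Atp6v0d2* rose by 0.57 ± 0.184 between NL and vehicle (limma adjusted p = 0.0157), a call that was lost without NL replicate 1 (0.35, limma adjusted p = 0.0660) or vehicle replicate 3 (0.45, limma adjusted p = 0.0671). Its differences of -0.34 ± 0.184 with MLN0128 (limma adjusted p = 0.181) and -0.42 ± 0.184 with everolimus (limma adjusted p = 0.169) were not called. Of 11 macrophage markers, 8 fell and 1 rose between NL and vehicle, from a summed 378.8 to 475.5 FPKM to 159 to 228 FPKM, and 4 fell with MLN0128 (78.4 to 146 FPKM) and 1 with everolimus (110 to 265 FPKM). Of 6 tested markers, of 8 listed, of osteoclasts and lipid-associated macrophages, 3 rose and 1 fell between NL and vehicle, and 2 fell with each drug, with sums of 69.0 to 77.8 FPKM in NL, 32.2 to 37.9 FPKM in vehicle tumors, 9.83 to 14.3 FPKM under MLN0128 and 12.4 to 20.2 FPKM under everolimus. *Acp5*, which fell between NL and vehicle, alone held 72.1, 75.8 and 66 FPKM of the NL sums of this second list, while *Gpnmb*, *Mmp12* and *Trem2* rose. Of all tested genes, 36% rose and 33% fell between NL and vehicle, 17.1% fell with MLN0128 and 6.05% with everolimus. None of these 11 and 6 markers was at 0 in a whole group, and the part of these cells in the *Atp6v0d2* values was not tested.

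The a subunit holds the path of the protons through the membrane, and its 4 isoforms steer the pump to different compartments. *Atp6v0a1* (ENSMUSG00000019302, chr11:101009452-101063719, + strand) read 9.68, 7.23 and 7.24 FPKM in NL and 5.42, 6.82 and 6.24 FPKM with vehicle. The groups did not overlap, yet the difference of -0.33 ± 0.158 was not called (limma adjusted p = 0.0804). It read 2.96, 2.97 and 4.15 FPKM with MLN0128 and 3.27, 4.65 and 3.90 FPKM with everolimus, below every vehicle library and overlapping each other. *Atp6v0a1* fell by 0.72 ± 0.158 with MLN0128 (limma adjusted p = 0.00542), a call lost with MLN0128 replicate 3 alone (-0.47, limma adjusted p = 0.175) and with summed FPKM as the scaling (-0.60, limma adjusted p = 0.0735). The difference of -0.54 ± 0.158 with everolimus was just outside the threshold (limma adjusted p = 0.0522), and inside it without MLN0128 replicate 3 or everolimus replicate 2 (limma adjusted p = 0.0365 for each).

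Among the other a isoforms, *Atp6v0a4* (ENSMUSG00000038600, chr6:38048483-38124586, - strand) had 1 to 3 reads per NL library (0.0186 to 0.0578 FPKM) and 319 to 791 per vehicle library. It lay at 6.95, 3.05 and 6.84 FPKM with vehicle, 7.65, 4.17 and 5.93 FPKM with MLN0128 and 2.21, 2.30 and 2.76 FPKM with everolimus. *Atp6v0a4* rose between NL and vehicle (limma adjusted p = 2.47e-06), with a fitted difference of 2.61 that depends on the pseudocount. It was not called with MLN0128 (0.10 ± 0.246, limma adjusted p = 0.790) and fell by 0.89 ± 0.246 with everolimus (limma adjusted p = 0.0434). Its pattern over the groups thus had the same order of means as *Atp6v0e2*: MLN0128, vehicle, everolimus, NL. The exons of *Atp6v0a4* share 321 bases with the neighbors *Tmem213* and *D630045J12Rik*. Of the summed FPKM of the 4 a isoforms, *Atp6v0a4* made up 0.0617% to 0.209% in NL, 10.02% to 18.8% with vehicle, 16.8% to 29.1% under MLN0128 and 10.04% to 12.4% under everolimus, while *Atp6v0a1* made up 26.1% to 32.1% in NL and 11.3% to 22.4% in tumors.

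The c subunit forms the proton-binding ring and is needed in several copies per pump. *Atp6v0c* (ENSMUSG00000024121, chr17:24163866-24169702, - strand) was listed at only 0.938 to 1.88 FPKM, the values being 1.59, 0.938 and 1.78 FPKM in NL, 1.88, 1.51 and 1.21 FPKM with vehicle, 1.59, 1.44 and 1.42 FPKM with MLN0128 and 1.14, 1.42 and 1.04 FPKM with everolimus. All neighboring groups overlapped, and no difference was called: 0.07 ± 0.148 between NL and vehicle (limma adjusted p = 0.712), -0.02 ± 0.148 with MLN0128 (limma adjusted p = 0.930) and -0.20 ± 0.148 with everolimus (limma adjusted p = 0.426). The processed pseudogene *Atp6v0c-ps2* (ENSMUSG00000080242, chr6:37806086-37806550, + strand) was listed at 118, 107 and 90.7 FPKM in NL, 107, 101 and 120 FPKM with vehicle, 39.1, 37.5 and 41.4 FPKM with MLN0128 and 56.8, 64.0 and 70.2 FPKM with everolimus. NL and vehicle overlapped, and both drug groups lay below them and apart from each other.

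The 465 bases of *Atp6v0c-ps2* aligned to bases 178 to 642 of the 1183-base *Atp6v0c* transcript with 464 identical bases and 1 mismatch. The 100 bases that end at that mismatch are shown, *Atp6v0c* from base 189 to 288 and the pseudogene from base 12 to 111, with the differing base in capitals, because a read from elsewhere in the shared stretch has the same letters in both genes.
Atp6v0c: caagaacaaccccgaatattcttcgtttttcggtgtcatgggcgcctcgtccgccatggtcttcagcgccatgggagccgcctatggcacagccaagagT
Atp6v0c-ps2: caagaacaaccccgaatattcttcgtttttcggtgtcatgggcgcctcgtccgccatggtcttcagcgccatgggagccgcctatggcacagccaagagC
Reads of the c subunit gene and of the pseudogene therefore cannot be told apart over most of that stretch, and the values of *Atp6v0c* alone are uncertain. *Atp6v0c* had 35 to 153 recovered reads per library and *Atp6v0c-ps2* had 371 to 1298. With the reads of both summed (an alternative added once these values had been seen), the difference was 0.06 between NL and vehicle (limma adjusted p = 0.652), and the sum fell by 1.15 with MLN0128 (limma adjusted p = 7.62e-05) and by 0.68 with everolimus (limma adjusted p = 0.00385).

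**Figure D3:**
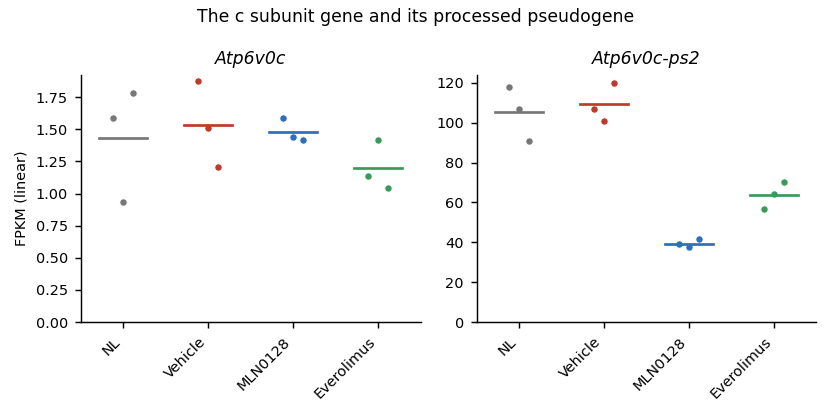
FPKM on linear axes from 0 of *Atp6v0c* (left) and *Atp6v0c-ps2* (right, another scale) in the 3 libraries of each group (points) with the group mean (line). The gene stays at 0.938 to 1.88 FPKM, while the pseudogene lies at 90.7 to 120 FPKM in NL and vehicle and at 37.5 to 70.2 FPKM with the drugs.

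In V1, the A and B subunits form the ring that splits ATP. *Atp6v1a* (ENSMUSG00000052459, chr16:44085402-44139705, - strand), the catalytic A subunit, read 17.8, 14.4 and 13.6 FPKM in NL and 25.7, 30.3 and 36.2 FPKM with vehicle. With MLN0128 it read 17.7, 14.0 and 15.2 FPKM, and with everolimus 14.8, 19.4 and 14.7 FPKM. Vehicle stood above all other groups, and the other 3 overlapped. *Atp6v1a* rose by 0.96 ± 0.160 between NL and vehicle (limma adjusted p = 0.000219) and fell by 0.92 ± 0.160 with MLN0128 (limma adjusted p = 0.00162) and by 0.87 ± 0.160 with everolimus (limma adjusted p = 0.00708). The drug-treated means were 50.9% and 53.0% of the vehicle mean.

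*Atp6v1b2* (ENSMUSG00000006273, chr8:69088646-69113711, + strand), the general B subunit, had the largest NL to vehicle difference of the 3 V1 members, from 9.81, 10.4 and 9.66 FPKM in NL to 33.2, 33.4 and 38.0 FPKM with vehicle. It remained at 29.2, 25.1 and 24.2 FPKM with MLN0128 and 24.5, 22.5 and 27.8 FPKM with everolimus, below every vehicle library and above every NL library. *Atp6v1b2* rose by 1.71 ± 0.113, or 3.502-fold in mean FPKM, between NL and vehicle (limma adjusted p = 1.78e-07), and fell by 0.40 ± 0.113 with MLN0128 (limma adjusted p = 0.0188) and by 0.47 ± 0.113 with everolimus (limma adjusted p = 0.0254). The MLN0128 call was lost without vehicle replicate 3 (limma adjusted p = 0.0790), MLN0128 replicate 2 (0.0508) or MLN0128 replicate 3 (0.0521), with MLN0128 replicate 3 alone (0.0614), and with plain library totals, quantile normalization or summed FPKM as the scaling (0.0977, 0.217 and 0.378). The everolimus call was lost without vehicle replicate 1 (limma adjusted p = 0.0570) or 3 (0.112) and without everolimus replicate 1 (0.0916) or 2 (0.0552), with summed FPKM as the scaling (0.0613), and with only the groups compared in the model (0.0589).

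*Atp6v1h* (ENSMUSG00000033793, chr1:5070018-5162529, + strand) encodes the H subunit, which restrains ATP splitting when V1 is free of the membrane. It read 14.0, 12.1 and 13.2 FPKM in NL and 12.2, 13.6 and 13.4 FPKM with vehicle, a difference of -0.0026 ± 0.1101 (limma adjusted p = 0.984). With MLN0128 it read 6.67, 7.39 and 5.95 FPKM and with everolimus 8.62, 7.18 and 7.53 FPKM, all below every NL and vehicle library. *Atp6v1h* fell by 0.88 ± 0.1101 with MLN0128 (limma adjusted p = 0.000330) and by 0.68 ± 0.1101 with everolimus (limma adjusted p = 0.00387). Its exons overlap 127 bases of *Rgs20* on the opposite strand, and whether the counting used strand is not given in the sources used here.

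*Atp6ap1* (ENSMUSG00000019087, chrX:74297097-74304721, + strand) encodes Ac45, which helps assemble V0. Its vehicle replicates lay close together at 33.9, 34.2 and 34.2 FPKM, beside 30, 31.5 and 31.9 FPKM in NL. With MLN0128 it read 19.3, 19.3 and 18.4 FPKM and with everolimus 22.8, 22.6 and 26.2 FPKM. All 4 groups were apart, in the order vehicle, NL, everolimus, MLN0128, although the NL to vehicle difference of 0.13 ± 0.0920 was not called (limma adjusted p = 0.235). *Atp6ap1* fell by 0.81 ± 0.0920 with MLN0128 (limma adjusted p = 0.000197) and by 0.50 ± 0.0920 with everolimus (limma adjusted p = 0.00714). The gene is X-linked, and the MLN0128 replicates with *Xist* RNA (19.3 and 19.3 FPKM) lay within 1 FPKM of the replicate without it (18.4 FPKM).

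Counted over the complex, 4 of the 10 subunits (*Atp6v0e2*, *Atp6v1b2*, *Atp6v1a* and *Atp6v0d2*) rose between NL and vehicle, 0 fell and 6 did not pass the test. The background was 36% of tested genes higher and 33% lower, so the count of higher members was near the background. The median difference was 0.20 over the members and 0.06 over all tested genes. Against a 1.5-fold change with limma's treat test, *Atp6v0e2* and *Atp6v1b2* passed (background 32.7%). With plain library totals, all 10 members were called higher, and relative to the shift of all genes they then ranged from -0.09 (*Atp6v0a1*) to 1.99 (*Atp6v1b2*). Of 11 other subunits tested, of 15 listed, *Atp6v0a4*, *Atp6v1c1* (0.68 ± 0.122), *Tcirg1* (0.41 ± 0.137) and *Atp6ap2* (0.37 ± 0.133) rose, *Atp6v1d* fell by 0.48 ± 0.147, and 6 did not pass.

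With MLN0128, 7 of the 9 members other than *Atp6v0e2* fell against vehicle and 0 rose, where 17.1% of tested genes fell and 14.9% rose. *Atp6v0c* and *Atp6v0d2* did not pass. With MLN0128 replicate 3 alone, assumed to vary like the other groups, 5 of the 9 fell. The median over the 9 was -0.81, beside -0.01 over all tested genes, and in FPKM the means of the 7 that fell were 50.9% (*Atp6v1a*) to 75.0% (*Atp6v1b2*) of vehicle. None passed against a 1.5-fold change (background 2.13%). Of the 11 other subunits, 8 fell and 1 rose. The accessory subunit *Atp6ap2*, known as the prorenin receptor, moved most, from 37.3, 46.8 and 38.4 FPKM with vehicle to 13.4, 14.6 and 18.6 FPKM (-1.34 ± 0.133, limma adjusted p = 9.46e-05), followed by the stalk subunit gene *Atp6v1g1* (-1.13 ± 0.114) and the c″ subunit gene *Atp6v0b* (-1.12 ± 0.153). *Atp6ap2* and *Atp6v1g1* also passed against a 1.5-fold change. *Atp6ap2* is X-linked, and its MLN0128 replicates with *Xist* RNA (13.4 and 14.6 FPKM) read lower than replicate 3 without it (18.6 FPKM). The part of this in the size of its difference was not tested. The ranking uses all 3 MLN0128 replicates. In replicate 3 alone, *Atp6v0b* read 28.4 FPKM (vehicle mean 70.9) and *Atp6ap2* 18.6 FPKM (vehicle mean 40.8), so *Atp6ap2* did not lead there.

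With everolimus, 6 of the same 9 members fell against vehicle and 0 rose, where 6.05% of tested genes fell and 3.78% rose. *Atp6v0c*, *Atp6v0d2* and *Atp6v0a1* did not pass. The median over the 9 was -0.54, beside 0.03 over all tested genes, and the means of the 6 that fell were 53.0% (*Atp6v1a*) to 71.5% (*Atp6v1b2*) of vehicle. None passed against a 1.5-fold change (background 0.604%). Of the 11 other subunits 8 fell and 0 rose, a count that was 3 without vehicle replicate 1 or vehicle replicate 3, 4 without everolimus replicate 1 or 2, and 5 without everolimus replicate 3. The largest of these differences were those of *Atp6v0a4* (-0.89 ± 0.246) and *Atp6ap2* (-0.76 ± 0.133). The counts for the 2 drugs use the same 3 vehicle libraries and are not independent.

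Some lists of markers of other cells moved in the same comparisons, and others did not. Of 4 tested markers, of 5 listed, of cholangiocytes and liver progenitors, *Krt19*, *Epcam* and *Sox9* rose between NL and vehicle and fell with each drug, while *Spp1* was not called. The summed level of the 5 was 40.2 to 43.6 FPKM in NL, 36.8 to 92.5 FPKM in vehicle tumors, 10.25 to 28.1 FPKM under MLN0128 and 17.2 to 61.8 FPKM under everolimus. In NL, *Spp1* alone held 38.3, 41.6 and 40.7 FPKM of it. *Krt19* had means of 0.400 FPKM in NL, 27.7 with vehicle, 0.493 with MLN0128 and 0.509 with everolimus. None of the 5 was at 0 in a whole group, and the part of these cells in the subunit values was not tested. With MLN0128, 2 of 7 hepatocyte markers fell and 1 rose, and 1 fell with everolimus. None of 5 endothelial, 3 tested leukocyte or 3 proliferation markers was called with either drug. Of 5 stellate and fibroblast markers, 1 rose with MLN0128 and none was called with everolimus. Over all tested genes, 36% rose and 33% fell between NL and vehicle. The shares were 14.9% and 17.1% with MLN0128, and 3.78% and 6.05% with everolimus.

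**Figure D4:**
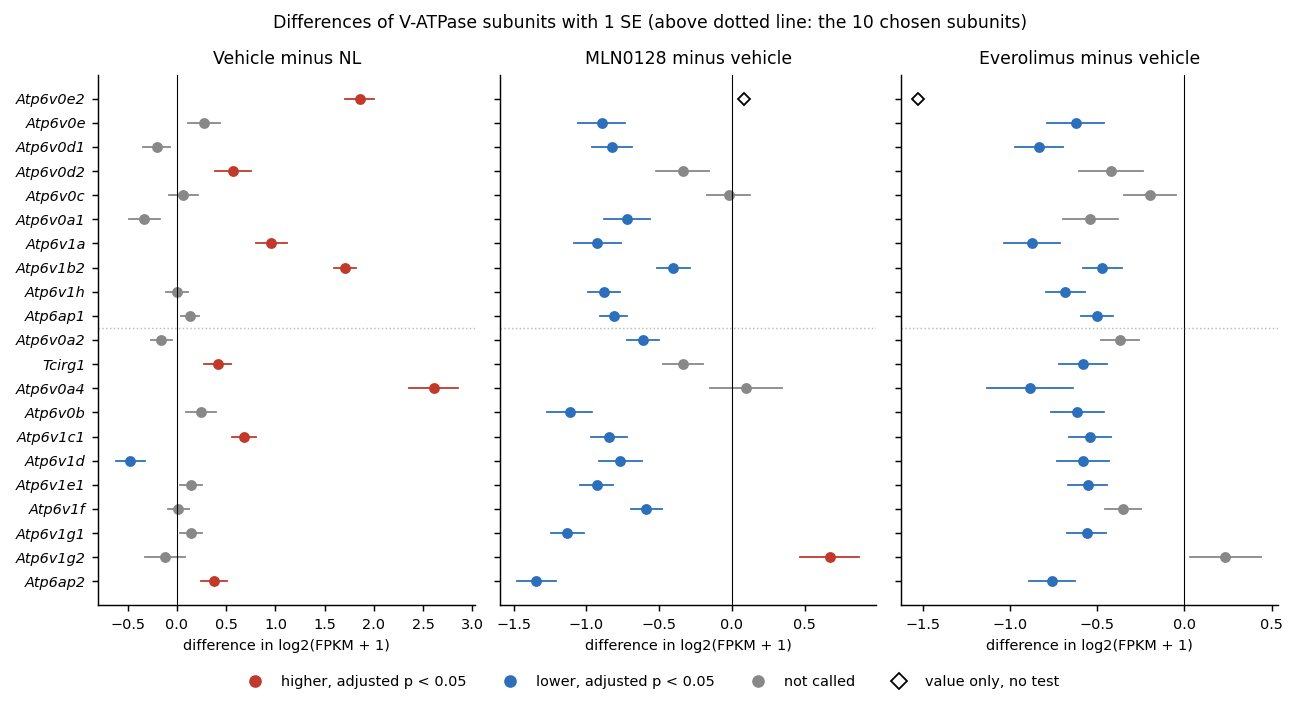
Differences in log2(FPKM + 1) with bars of 1 SE for the 10 chosen subunits (above the dotted line) and 11 other subunits, in 3 comparisons with separate axes, where colors mark the limma call and open diamonds are values with no test. Most points lie left of 0 with either drug, whereas *Atp6v0e2* lies at 0.08 with MLN0128 and -1.53 with everolimus.

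Set directly beside each other, with no test, the drug groups differed little in 9 of the members. MLN0128 minus everolimus ran from -0.31 (*Atp6ap1*) to 0.18 (*Atp6v0c*) on the log2(FPKM + 1) scale, and the libraries of the drugs overlapped for each of these genes except *Atp6ap1*. *Atp6v0e2*, at 1.61, stood outside that range, as it was chosen to. With the pseudogene reads added, *Atp6v0c* was at -0.47. Among the other tested subunits *Atp6v0a4* had the next largest difference toward MLN0128 (0.99, no overlap), and *Atp6ap2*, *Atp6v1g1* and *Atp6v0b* were lower with MLN0128 (-0.59, -0.57 and -0.50, no overlap). *Atp6v1e1*, *Atp6v0a2* and *Atp6v1f* were also lower without overlap (-0.37, -0.24 and -0.24), and *Tcirg1* was higher (0.24). *Atp6v1c1*, *Atp6v1d* and *Atp6v1g2* overlapped. The median difference was -0.05 over the 9 members, -0.24 over the other tested subunits and -0.03 over all tested genes. The share of all tested genes whose drug libraries do not overlap was not computed. The summed FPKM of the 10 members was 112 to 121 with MLN0128, 117 to 128 with everolimus, 188 to 215 with vehicle and 148 to 158 in NL.

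The counts for genes that serve the pump were mixed. Over all tested genes, 36% rose and 33% fell between NL and vehicle. With MLN0128 14.9% rose and 17.1% fell, and with everolimus 3.78% rose and 6.05% fell. Of 10 assembly factors and regulators, which build V0 in the endoplasmic reticulum or couple V1 to V0, 5 rose and 3 fell between NL and vehicle, 1 fell with MLN0128, and none passed with everolimus. Of the 4 genes of MiT/TFE factors, transcription factors that bind E-boxes of lysosomal genes, 2 fell between NL and vehicle and none passed with either drug, with sums of 5.41 to 6.63 FPKM in vehicle tumors, 4.62 to 5.14 FPKM under MLN0128 and 4.77 to 5.43 FPKM under everolimus. Of 10 genes of the Ragulator complex, the Rag GTPases and their amino acid sensor *Slc38a9*, 5 rose and 4 fell between NL and vehicle, 6 fell and 1 rose with MLN0128, and 2 fell with everolimus.

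Over the 12 libraries, the 5 genes whose log2(FPKM + 1) profile, centred on its own mean, lay nearest to that of *Atp6v0e2* were *Gm16505*, *Vil1*, *Slc7a9*, *Myo15b* and *Smim24*, with root mean square differences of 0.292, 0.312, 0.367, 0.369 and 0.386. The profile of *Atp6v0e2* itself departed from its mean by 0.886. *Vil1*, which encodes the actin-bundling protein villin, had means of 0.0346 FPKM in NL, 2.68 with vehicle, 2.28 with MLN0128 and 0.354 with everolimus. *Slc7a9*, which encodes a transporter of cystine and basic amino acids, had means of 0.0350, 3.79, 3.84 and 1.51 FPKM. For *Atp6v0d2*, whose own departure was only 0.288, the nearest were *Cd300lf*, *Ninl*, *Ms4a7*, *Cyth3* and *Prmt2* at 0.161 to 0.176. These 10 genes were found by their likeness among 14396 candidates, so their levels are descriptions.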

How the data were processed

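RNA-Seq libraries of 12 mouse livers or liver tumors, 4 groups of 3 mice, were analysed from the FPKM deposited by the authors, which are linear and rounded to 3 significant digits. The authors counted reads per Ensembl gene and used edgeR's glmTreat; the submitters' processing notes name GRCm38 and FastQC 0.11.7, and the aligner is not given in the sources used here. Libraries came from polyA capture or rRNA removal. The labels and the methods give 3 weeks of treatment, and the study's results text gives 3 days for the RNA-Seq tumors. Groups were taken from the labels.

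The members and gene lists were chosen with earlier results of these data known. All 12 libraries were fitted in 1 model (limma 3.58.1, R 4.3.3, moderated test with intensity trend) on log2(FPKM + 1) of 14397 genes, with Benjamini-Hochberg adjustment over all of them and a call under 0.05. P-values measure the spread between the libraries of a group, taken here as 1 per mouse. In the MLN0128 group that spread includes replicates with and without *Xist* RNA. All 10 members, the subunits on the list of other V-ATPase genes and the 5 nearest profiles of *Atp6v0e2* and *Atp6v0d2* were to be named, with counts for other lists. Exon lengths and positions came from GENCODE M21. Reads were recovered as whole multiples, of which 98.1% to 98.8% of values under 20 reads came within 0.1 of a whole read, and 3 reads on 2 kb equal 0.0496 to 0.144 FPKM. The fit was tested on simulated data. Alternatives covered pseudocount, filter, scaling, threshold, prior variance, replicate block and libraries left out.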

Additional observations from a re-analysis of the deposited data

How the results depend on the processing

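The counts of called genes were recomputed under 24 alternatives each. With libraries scaled to summed FPKM or to plain library totals, 10 members and 10 of the other subunits were called between NL and vehicle (8 others with quantile normalization), all higher. Under those scalings the NL to vehicle differences turned sign for *Atp6v0d1* (0.98 summed FPKM, 0.70 plain totals, 0.31 quantile), *Atp6v0a1* (0.76 and 0.47), *Atp6v1h* (1.15, 0.85 and 0.078) and *Atp6v0c* (-0.038, quantile), none of which was called under the authors' scaling, as did *Atp6v0c* with MLN0128 (0.18 and 0.076). With the treat test at 1.5-fold, 2 members and 1 other subunit remained called between NL and vehicle, 0 members and 2 others under MLN0128, and 0 of either list under everolimus. With only the 2 groups compared in the model, 4 members and 4 other subunits were called with everolimus, and with summed FPKM 5 members were. Leaving out 1 library at a time gave 3 to 4 members and 3 to 5 others between NL and vehicle (3 others without vehicle replicate 2), 6 to 7 members and 8 to 9 others under MLN0128, 4 to 7 members and 3 to 9 others under everolimus, and ranges that crossed 0 for *Atp6v0c* (-0.091 to 0.17) and *Atp6v1h* (-0.055 to 0.043) between NL and vehicle and for *Atp6v0c* with MLN0128 (-0.12 to 0.076). The causes of these changes were not tested. No pairing by replicate number was seen: in 0 of 9 pairs did same-numbered libraries correlate over 0.1, with r from -0.289 to 0.0490. With 3 libraries per group and vehicle in each comparison, these correlations cannot exclude a pairing or a shared batch. With the replicate block, 4, 7 and 4 members were called in the 3 comparisons, with *Atp6v0e* and *Atp6v1b2* not called with everolimus (limma adjusted p = 0.0677 and 0.0540). Depth limits *Atp6v0e2* and *Atp6v0d2* in NL, at 9 to 16 and 6 to 30 reads.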

Other observations

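The rare V1 isoforms *Atp6v1b1* and *Atp6v1g2* are named here after their values were seen. *Atp6v1b1*, the B isoform known from acid-secreting kidney cells, had 0 reads in each vehicle library, which allows up to 0.0294 to 0.0325 FPKM (3 reads, counting error only), and 0 or 1 read in each NL library. It had 39, 54 and 12 reads with MLN0128 (0.313, 0.578 and 0.114 FPKM) and 25, 16 and 16 reads with everolimus (0.302, 0.121 and 0.147 FPKM), every drug library above every vehicle library. It did not pass the filter on low values. The 39 and 54 reads are those of the MLN0128 replicates with *Xist* RNA, and the 12 are those of replicate 3. With no filter, the differences of *Atp6v1b1* from vehicle were 0.40 with MLN0128 and 0.25 with everolimus. They are given without a p-value, since the gene failed the filter and was named after its values were seen. *Atp6v1b1* made up at most 2.25% of the summed FPKM of the B isoforms.

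*Atp6v1g2*, the G isoform known from neurons, read 0.632, 0.491 and 0.564 FPKM with vehicle and 1.11, 1.03 and 2.60 FPKM with MLN0128, the only subunit past the filter that rose with MLN0128 (0.67 ± 0.202, limma adjusted p = 0.0254). The call was lost without vehicle replicate 1, 2 or 3 (limma adjusted p = 0.0535, 0.0660 and 0.0651), without MLN0128 replicate 3 (0.41, limma adjusted p = 0.0564) and with only the groups compared in the model (limma adjusted p = 0.0643). With everolimus it read 1.24, 0.566 and 0.768 FPKM and was not called (0.23 ± 0.202, limma adjusted p = 0.498). Its share of both G isoforms was 0.360% to 0.501% with vehicle and 1.77% to 4.24% with MLN0128. Its exons overlap 144 bases of *Nfkbil1* on the opposite strand.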
